A study of Mus musculus with 45 samples.

Results

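The core pluripotency factors described here are 6 genes of the epiblast, the tissue of the early embryo that gives rise to the body: Pou5f1, Nanog, Sox2, Utf1, L1td1 and Foxd3. They were chosen by gene symbol, with earlier results of these data known. All 6 were found among the 15997 gene symbols of the 3 deposited tables. The table for E5.25 held all of them among its 10176 genes, as did the table for E5.75 among 13618, while the table for E5.5, of 13060 genes, held 5 and had no row for Foxd3.

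The study followed expression along the proximal-distal axis of untreated mouse embryos at 3 embryonic ages soon after implantation, called E5.25, E5.5 and E5.75. Frozen embryos were cut into numbered sections, pieces of tissue were taken by laser capture microdissection, and their RNA was sequenced by Smart-seq2, which reads whole transcripts from trace amounts of RNA. The labels name 45 samples: 7 are E5.25, 17 are E5.5 and 21 are E5.75. No strain, genotype or sex is given. The tables analysed here held sections 1 to 4 and 6 to 8 of E5.25, sections 1, 2 and 4 to 10 of E5.5, and sections 1 to 8, 10 to 12 and 14 to 19 of E5.75, together with libraries of sections 6 and 7 marked VE, which usually stands for visceral endoderm, the layer around the embryo. At E5.75, sections 9 and 13 were not analysed here. The labels do not say which end of the axis section 1 is. They seem to describe 1 embryo per stage, so a p-value below sets sections of an embryo against each other and is too small for any statement about embryos in general.

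OCT4, the protein of Pou5f1, and SOX2 are transcription factors that bind DNA side by side at a joined motif, and with the homeodomain factor NANOG they hold the inner cells of the mouse blastocyst in a pluripotent state. At implantation the epiblast keeps Pou5f1, while Nanog is known to decline and to return in part of the epiblast before gastrulation. Sox2 is also needed in the extraembryonic ectoderm, the neighbouring trophoblast tissue, and Utf1 has been described in both tissues of the mouse embryo.

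The promoter windows of the 3 central factors are shown because OCT4 and SOX2 are known to act on these genes themselves. Each window holds the 250 bases before a start site and the 50 bases from it on, lies on the + strand of GRCm38.p6, and was taken from RefSeq. Capitals mark matches, on either strand, to the octamer core ATGCAAA, to the SOX core CATTGT, or to the joined motif CATTGTNATGCAAA.
Pou5f1, chr17:35505782-35506081: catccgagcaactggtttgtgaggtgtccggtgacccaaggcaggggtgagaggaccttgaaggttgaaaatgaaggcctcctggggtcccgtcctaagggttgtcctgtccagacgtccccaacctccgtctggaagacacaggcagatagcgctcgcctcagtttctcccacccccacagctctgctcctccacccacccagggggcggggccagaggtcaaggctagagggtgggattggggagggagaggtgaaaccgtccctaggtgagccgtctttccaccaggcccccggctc
Nanog, chr6:122707239-122707538: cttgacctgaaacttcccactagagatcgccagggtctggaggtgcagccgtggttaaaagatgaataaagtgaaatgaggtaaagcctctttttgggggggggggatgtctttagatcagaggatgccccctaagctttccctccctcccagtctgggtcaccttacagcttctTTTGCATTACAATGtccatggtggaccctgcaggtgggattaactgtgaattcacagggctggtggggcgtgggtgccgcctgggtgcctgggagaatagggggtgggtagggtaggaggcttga
Sox2, chr3:34649745-34650044: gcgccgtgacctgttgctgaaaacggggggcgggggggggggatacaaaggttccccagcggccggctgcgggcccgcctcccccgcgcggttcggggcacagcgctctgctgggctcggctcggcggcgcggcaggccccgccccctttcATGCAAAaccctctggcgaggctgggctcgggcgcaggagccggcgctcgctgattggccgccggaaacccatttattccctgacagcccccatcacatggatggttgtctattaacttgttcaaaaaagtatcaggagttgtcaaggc
Nanog carried the joined motif, which holds a match to each core inside it, from position -75 relative to its start site. The joined motif was found in 2 of 32851 promoter windows of all genes, and both were windows of Nanog, so 1 of 27025 genes had it in this spelling. Sox2 held the octamer core from position -99, a match found in 4.63% of windows. The Pou5f1 window held neither core, and a window at another RefSeq start site of Pou5f1 held the SOX core, which 12.6% of windows hold. Windows of Utf1, L1td1 and Foxd3 held none of these letters. A match is only a string of letters in the window, and the tables hold no binding data.

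Detection varied along the section series. Levels are in FPKM, sequenced fragments per kilobase of transcript and per unit of library size. The number of genes at an FPKM of 1 or more was 1496 and 2147 for the VE pieces of E5.75, 3211 and 3424 for its sections 1 and 2, and between 5303 and 8217 for its other sections. At E5.5 it was 2288 to 4954 in sections 1 to 5, against 5950 to 6467 in sections 6 to 10. At E5.25 it was 2046 to 4282 in sections 1 to 4, against 5636 to 6461 in sections 6 to 8. Position and gene detection thus ran together at these stages and cannot be fully told apart. The ribosomal RNA precursor Rn45s made up 62.2% and 48.8% of all FPKM in the VE pieces, 52.8% in section 1 of E5.75 and 69.8% in section 1 of E5.5. That E5.5 library listed Gapdh, which nearly every cell makes, at 0, so a 0 is reported here only as a listing of 0. With no counts in the tables, sequencing depth is unknown.

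At E5.75, Pou5f1 and Foxd3 were high in low-numbered sections and low or listed at 0 in sections 10 to 19. Sox2 stood at 3.52 or more in every section from 4 to 12 and at 1.05 or 0 beyond it. Nanog, L1td1 and Utf1 were present along nearly the whole series. All values are log2(FPKM + 1) unless FPKM is named. Sections were compared by number, 10 to 19 against 1 to 8, and a change is the mean of sections 10 to 19 minus the mean of sections 1 to 8.

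**Figure D1:**
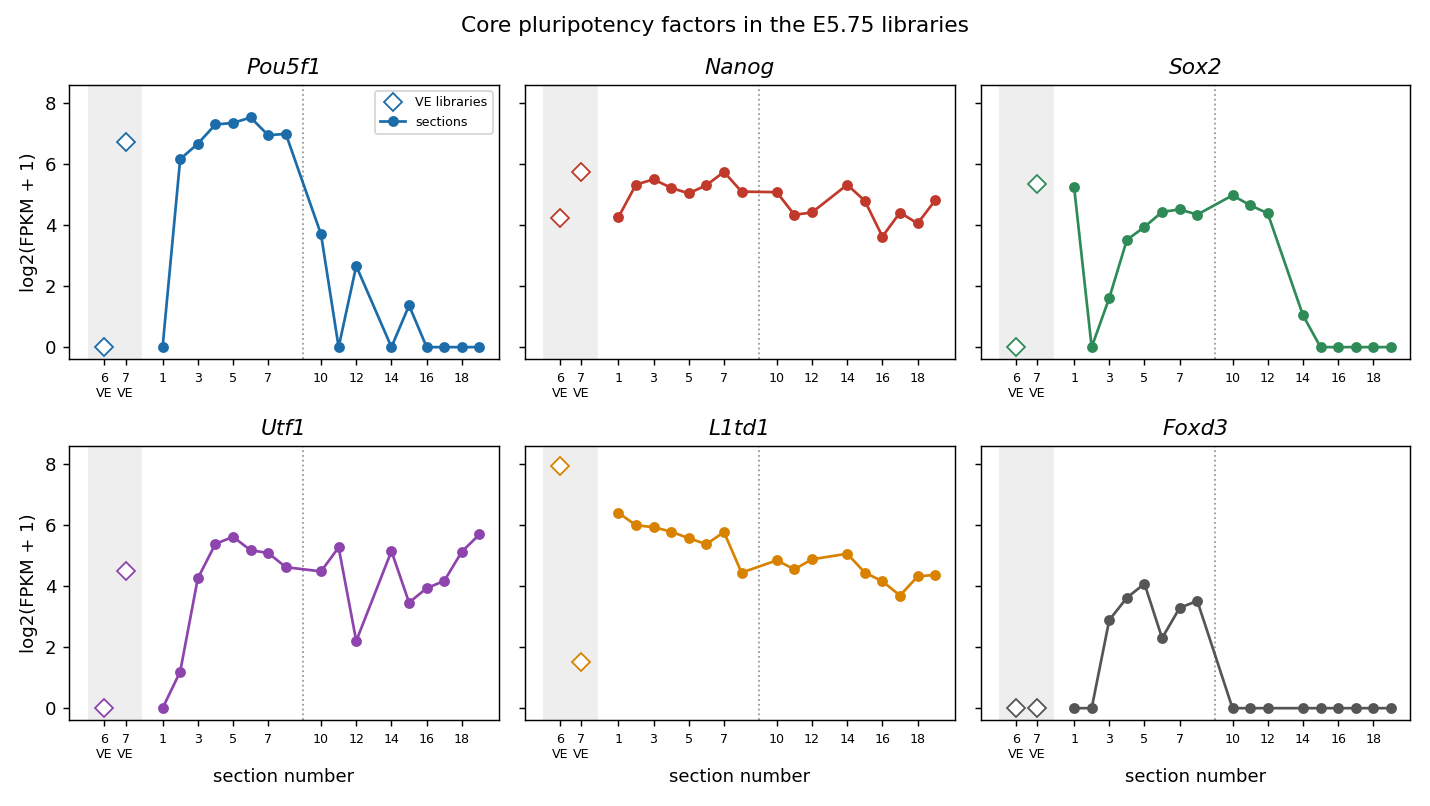
Level of each factor on the log2(FPKM + 1) scale (vertical axis) against section number (horizontal axis) at E5.75; filled points are sections, open diamonds in the grey band are the VE libraries of sections 6 and 7, and the dotted line lies between sections 8 and 10. Pou5f1 and Foxd3 drop at the dotted line, Sox2 drops between sections 12 and 14, and Nanog stays between 3.63 and 5.748 in every section.

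Pou5f1 encodes OCT4, the POU-domain factor without which the mouse embryo forms no pluripotent cells. The gene lies on chromosome 17 from 35506018 to 35510772 (GRCm38, + strand). In sections 10 to 19 its lowest, median and highest values were 0, 0 and 3.70, against 0, 6.97 and 7.53 in sections 1 to 8. In sections 10 to 19 it stood at 3.70 in section 10, 2.66 in section 12 and 1.37 in section 15 and was listed at 0 in the other 6. The 0 among the low-numbered sections was section 1, and sections 2 to 8 all stood above every section from 10 on, at 6.17 or more. The change was -5.26 ± 0.84 (log2 scale, SE, n = 9 and 8 sections; limma, Benjamini-Hochberg adjusted p = 0.00015), while the median change of all 11149 genes tested was 0.45. Of all genes tested, 12.5% passed this test, and 2.10% passed it as lower in sections 10 to 19. In pieces of tissue, fewer cells of a type and less RNA per cell cannot be told apart.

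Foxd3, a forkhead factor that the mouse epiblast needs to persist, lies on chromosome 4 from 99656299 to 99658622. It was listed at 0 in all 9 of sections 10 to 19, against 0, 3.09 and 4.08 as the lowest, median and highest of sections 1 to 8. Sections 1 and 2 were listed at 0 and sections 3 to 8 stood between 2.30 and 4.08. The change was -2.46 ± 0.51 (SE, limma adjusted p = 0.00233). With Pou5f1 it was the factor whose drop passed the test under all 27 alternatives to the analysis, although its size varied from -4.84 to -1.11 with the pseudocount added before taking logs. A gene was tested if it reached an FPKM of 1 in at least 2 libraries, and Foxd3 did so only among sections 1 to 8. The main fit could thus find Foxd3 only lower in sections 10 to 19, and its agreement across alternatives adds little support.

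Sox2, the HMG-box partner of OCT4, lies on chromosome 3 from 34650405 to 34652461, inside the same-strand transcript Sox2ot, so reads of the pair cannot be fully told apart. Its border lay at a higher section number than that of Pou5f1. In sections 10, 11 and 12 Sox2 stood at 4.98, 4.65 and 4.39, where Pou5f1 stood at 3.70, 0 and 2.66. In section 14 Sox2 was at 1.05, and in sections 15 to 19 it was listed at 0. In sections 1 to 8 it was at 5.26, 0, 1.61, 3.52, 3.94, 4.44, 4.52 and 4.35 in section order. The groups thus overlapped, and the change between them, -1.78 ± 0.85, did not pass (SE, limma adjusted p = 0.167). A line fitted within sections 10 to 19 gave a fall of 5.93 ± 0.95 from section 10 to section 19 (SE, n = 9 sections, limma adjusted p = 0.00849), a test that 1.67% of 9967 genes passed. It passed under all 17 alternatives. In the same fit Pou5f1 changed by -2.69 ± 0.97 (adjusted p = 0.189), or by -1.297 without section 10 (adjusted p = 0.54), and Nanog, Utf1 and L1td1 did not pass either.

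Markers of neighbouring tissues changed at both borders, and their part in these results was not tested. The 9 markers of extraembryonic ectoderm summed to between 167 and 401 FPKM in sections 10 to 19, against 0 to 12.4 FPKM in sections 1 to 8, and all 9 reached an FPKM of 1 in sections 10, 11 and 12. The 8 epiblast markers summed to between 8.50 and 136 FPKM in sections 10 to 19, against 142 to 530 FPKM in sections 1 to 8. The ectoplacental cone markers, 9 genes of the trophoblast tissue beyond the extraembryonic ectoderm, summed to 59.5 to 63.6 FPKM in sections 10 to 12, against 265 to 1922 FPKM in sections 14 to 19, the sections where Sox2 was near 0. Section 1, where Pou5f1 was listed at 0 and Sox2 stood at 5.26, held 616 FPKM of the 14 visceral endoderm markers, but only 5 of them reached an FPKM of 1, led by the apolipoprotein genes Apoa1 at 6.97 and Apoe at 8.76, and 9 were listed at 0, Amn, Ttr and Afp among them. Decidua markers, 6 genes of the maternal tissue around the embryo, summed to between 2.12 and 303 FPKM in sections 10 to 19, with a median of 31.1 and the highest sums in sections 14 and 19, against 0 to 15.8 FPKM with a median of 2.52 in sections 1 to 8.

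Utf1, a chromatin-bound protein of mouse embryonic stem cells and epiblast, lies on chromosome 7 from 139943789 to 139945112. It stood between 2.20 and 5.70 in sections 10 to 19, with a median of 4.49, against a lowest value of 0, a median of 4.86 and a highest value of 5.62 in sections 1 to 8. It was listed at 0 in section 1, stood at 1.20 in section 2 and stood at 4.26 or more in sections 3 to 8. Its level was thus as high in section 19, at 5.70, as in any low-numbered section. The change was 0.47 ± 0.71 (SE, limma adjusted p = 0.681) with a 95% interval from -0.99 to 1.94, which does not show that the groups are alike, and the sign turned under 4 of 27 alternatives. Across the 17 sections Utf1 followed the number of detected genes, with a Pearson r of 0.699, given as a description because both come from the same libraries.

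Nanog, the homeodomain factor of naive pluripotency, lies on chromosome 6 from 122707489 to 122714633. It stood between 3.63 and 5.33 in sections 10 to 19, with a median of 4.42, against 4.26 to 5.748 with a median of 5.27 in sections 1 to 8. The ranges overlapped, and the change was -0.65 ± 0.36 (SE, limma adjusted p = 0.229, 95% interval -1.39 to 0.10). No section lacked it: the lowest of the 17 values was 11.4 FPKM, in section 16, and the highest was 52.8 FPKM, in section 7. Pou5f1 spanned 0 to 184 FPKM over the same sections.

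L1td1 encodes an RNA-binding protein derived from a LINE-1 transposon and made in embryonic stem cells. It lies on chromosome 4 from 98726734 to 98738480. In sections 10 to 19 it stood between 3.70 and 5.07 with a median of 4.45, against 4.44 to 6.41 with a median of 5.78 in sections 1 to 8. Section 1 had the highest value and section 17 the lowest, and only section 8 of the low-numbered sections lay within the range of the others. The change was -1.18 ± 0.36 (SE, limma adjusted p = 0.0335), or 2.27-fold lower on the log2(FPKM + 1) scale. This call was narrow: without section 3, 4, 11, 16, 17 or 18, each left out alone, the adjusted p lay between 0.0501 and 0.0704, and with gene detection entered as a covariate the change was -0.81 (adjusted p = 0.221). L1td1 ran against the number of genes detected (r = -0.732 over 17 sections, a description within the same libraries).

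Within sections 1 to 8 no factor passed a test for a line in section number, nor did any of the 8751 genes tested with limma (0% called), although 2394 had an unadjusted p under 0.05 and 17 passed without the mean-variance trend. The fitted changes from section 1 to section 8 were 4.63 ± 1.63 for Pou5f1, 4.57 ± 1.41 for Utf1 and 3.31 ± 1.30 for Foxd3 (SE, adjusted p = 0.1, 0.0758 and 0.124 in that order). All 3 were listed at 0 in section 1, and without that section they changed by 0.70 for Pou5f1, 2.52 for Utf1 and 2.15 for Foxd3. The change of Sox2 was 2.09 ± 1.54 (adjusted p = 0.377), or 4.23 without section 1 and 0.54 without section 2, and the median change of all genes in this fit was 1.23.

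By level per length, Pou5f1 was the highest of the factors in sections 1 to 8, with a median of 125 FPKM, then L1td1 with 54.1, Nanog with 37.6, Utf1 with 28.4, Sox2 with 16.9 and Foxd3 with 7.60 FPKM. In sections 10 to 19 the order was Utf1 with 21.4, L1td1 with 20.9 and Nanog with 20.4 FPKM, with Pou5f1, Sox2 and Foxd3 at a median of 0. Each factor's range over sections overlapped that of its neighbours in both orders: in sections 10 to 19 Pou5f1 and Sox2 still reached 11.97 and 30.5 FPKM, and in sections 1 to 8 Pou5f1 was listed at 0 once.

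**Figure D2:**
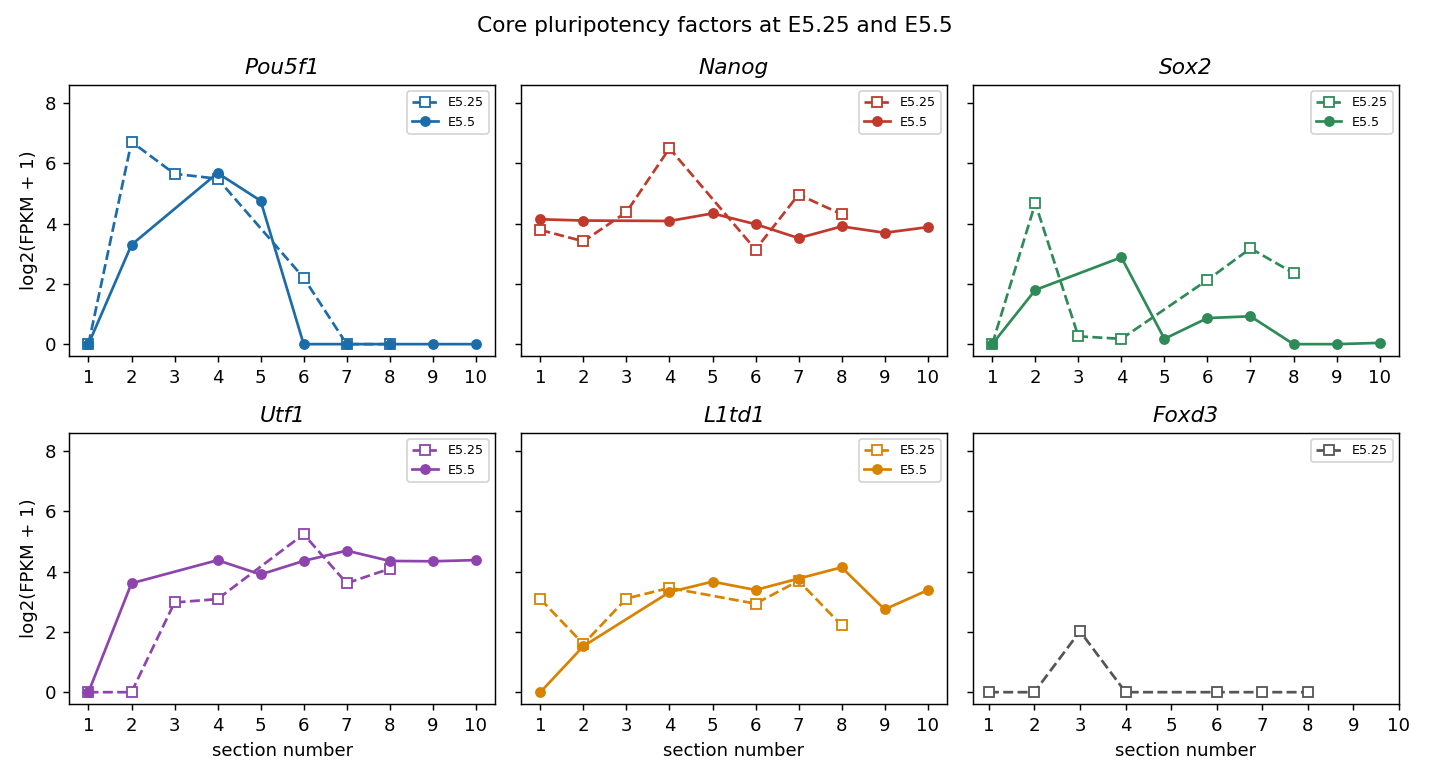
Level of each factor on the log2(FPKM + 1) scale (vertical axis) against section number (horizontal axis) at E5.25 (open squares, dashed line) and E5.5 (filled circles, solid line, with the columns of section 10 averaged); Foxd3 had no row at E5.5. Pou5f1 is listed at 0 in every E5.5 section from 6 on and in sections 7 and 8 of E5.25, while Nanog is present in every section of both series and L1td1 in every section but the first of E5.5.

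At E5.5 the border of Pou5f1 lay between sections 5 and 6. Pou5f1 was listed at 0 in sections 6 to 10, against 0, 3.30, 5.68 and 4.76 in sections 1, 2, 4 and 5, a change of -3.43 ± 0.86 (SE, n = 5 and 4 sections, limma adjusted p = 0.0123). Every section from 6 on was at the level of section 1 and below sections 2, 4 and 5. Pou5f1 entered this test only through the low-numbered sections, so the test could find it only lower from section 6 on. Of all genes tested at E5.5, 25.7% passed, nearly all as higher in sections 6 to 10, and the median change was 0.76. Each of sections 6 to 10 also had more detected genes than any of sections 1 to 5. Fitted as a line over all sections, the change of Pou5f1 was -3.13 and did not pass (adjusted p = 0.152).

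The other factors did not pass at E5.5. Sox2 stood at 0.86 and 0.92 in sections 6 and 7, at 0 in sections 8 and 9 and at 0 and 0.09 in the columns of section 10, against 0, 1.80, 2.88 and 0.18 in sections 1, 2, 4 and 5; only sections 2 and 4 exceeded an FPKM of 1 (change -0.85 ± 0.55, adjusted p = 0.256). Utf1 stood between 4.34 and 4.70 in sections 6 to 10, against 0, 3.61, 4.38 and 3.91 in the low-numbered sections. Its 0 was in section 1 (change 1.45 ± 0.81, adjusted p = 0.191, and 0.46 without section 1). L1td1 ranged from 2.75 to 4.14 in sections 6 to 10, against 0, 1.53, 3.32 and 3.67 (change 1.36 ± 0.74, adjusted p = 0.177, and 0.65 without section 1). In sections 6 to 10, where Pou5f1 was 0, Utf1 and L1td1 were thus both above an FPKM of 1.

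Nanog was one of the most even of the 723 genes, among 13060 at E5.5, that reached an FPKM of 1 in every section. Gapdh, listed at 0 in section 1, is not among these 723. It stood at 3.98, 3.52, 3.91 and 3.70 in sections 6 to 9 and at 3.95 and 3.81 in the columns of section 10, against 4.14, 4.10, 4.09 and 4.34 in sections 1, 2, 4 and 5. The change was small and did not pass (-0.37 ± 0.54, SE, limma adjusted p = 0.631). Its SD over the 9 sections was 0.25, and only 12 of the 723 genes that reached an FPKM of 1 in every section, 1.66%, had a smaller one. At E5.75 its SD was 0.58, with 242 of 1170 such genes below it, and at E5.25 it was 1.13, with 258 of 532 below it. The stages differ in numbers of sections and of such genes, so evenness was not compared between them. At E5.5 section 10 was the mean of its columns, and most other columns may join parts of a section. In section 1 of E5.5, where Gapdh, Pou5f1, Sox2, Utf1 and L1td1 were all listed at 0, Nanog was at 4.14. That library held 599 FPKM of visceral endoderm markers and 141 FPKM of decidua markers, the highest sums of any E5.5 column, and their part in its values was not tested.

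At E5.25 none of the 5 factors tested passed, among 7148 genes of which 20.6% did. Each of sections 6 to 8 had more detected genes than any of sections 1 to 4. Pou5f1 stood at 2.20, 0 and 0 in sections 6, 7 and 8, against 0, 6.71, 5.65 and 5.49 in sections 1 to 4 (change -3.73 ± 1.60, SE, n = 3 and 4 sections, limma adjusted p = 0.127). Section 1 was again the low-numbered section listed at 0, and without it the change was -5.22 (adjusted p = 0.0218). Utf1 stood at 5.24, 3.61 and 4.10 in sections 6, 7 and 8, against 0, 0, 2.98 and 3.09 in sections 1 to 4. Its change was 2.80 ± 1.07 (limma adjusted p = 0.0987), and the median change of all genes was 1.07. Sox2 stood at 2.13, 3.18 and 2.36, against 0, 4.68, 0.26 and 0.18. Section 2 was alone among the low-numbered sections in holding Sox2 above an FPKM of 1; without it the change was 2.41 (adjusted p = 0.0297), against 1.28 ± 1.18 with it (adjusted p = 0.481).

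Nanog at E5.25 stood at 3.14, 4.96 and 4.31 in sections 6, 7 and 8, against 3.79, 3.41, 4.38 and 6.50 in sections 1 to 4, with its highest value in section 4, where 2046 genes were detected (change -0.38 ± 1.03, adjusted p = 0.838). L1td1 stood at 2.94, 3.69 and 2.22, against 3.09, 1.60, 3.11 and 3.46 (change 0.14 ± 0.81, adjusted p = 0.927). Foxd3 was listed at 2.02 in section 3 and at 0 in the other 6 sections, too few to test. The stages have separate tables and their normalization is not given, so levels were not compared between stages. The pattern of Pou5f1 high in low-numbered sections other than section 1 was present in each stage. At E5.25 and E5.5, as at E5.75, the extraembryonic ectoderm markers were higher in the high-numbered sections, at 137 to 149 FPKM in sections 6 to 8 of E5.25, against 0 to 10.9 FPKM in sections 1 to 4, and at 94.0 to 120 FPKM in sections 6 to 10 of E5.5, against 0.85 to 84.0 FPKM in sections 1 to 5. Their part in the values of the factors was not tested.

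**Figure D3:**
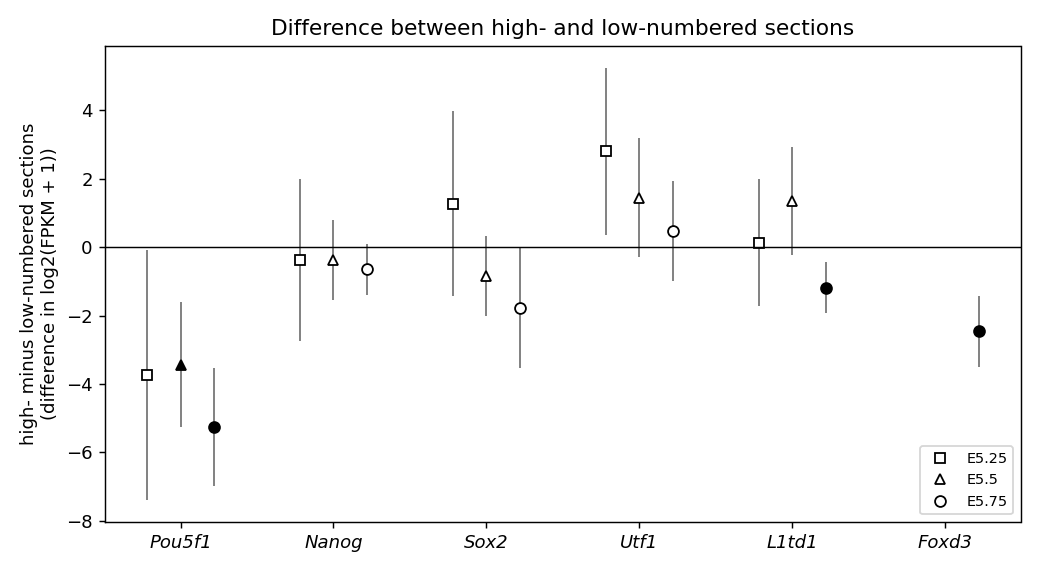
Change of each factor between high- and low-numbered sections (vertical axis, difference in log2(FPKM + 1); sections 6 to 8 minus 1 to 4 at E5.25, 6 to 10 minus 1 to 5 at E5.5, 10 to 19 minus 1 to 8 at E5.75), with 95% intervals from limma; filled symbols have an adjusted p under 0.05. Pou5f1 is below 0 at each stage, L1td1 and Foxd3 are filled at E5.75 only, and Foxd3 was not tested at E5.25 and absent at E5.5.

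The VE libraries of E5.75 did not resemble each other in these genes. In the VE pieces from section 6 and section 7 Pou5f1 stood at 0 and 6.73, against 7.53 and 6.95 in the other libraries of these sections. Sox2 stood at 0 and 5.36, against 4.44 and 4.52, and Utf1 at 0 and 4.48, against 5.18 and 5.09. L1td1 ran the opposite way, at 7.94 and 1.51 in the VE libraries, against 5.38 and 5.78. Nanog stood at 4.23 and 5.73, against 5.31 and 5.748, and Foxd3 was listed at 0 in both VE libraries, against 2.30 and 3.29. The VE library of section 7 thus held Pou5f1, Sox2, Utf1 and Nanog at values near those of the section it came from, and the VE library of section 6 held the highest L1td1 value of any E5.75 library.

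Foxd3 was the only factor that passed in this comparison (change -2.80 ± 0.43, SE, n = 2 each, limma adjusted p = 0.0156), where 57.2% of 6413 genes passed, nearly all as lower in VE, with a median change of -2.09. Foxd3, at 0 in both VE libraries, entered this test only through the other libraries of sections 6 and 7. It could therefore come out only as lower in VE, and its SD within VE was 0. With quantile normalization 0 genes passed in limma, though 3090 had an unadjusted p under 0.05, and without the other library of section 6 or of section 7 the count was 2. Set against all of sections 1 to 8, Foxd3 changed by -2.46 and did not pass (adjusted p = 0.233). Without the VE library of section 6, L1td1 changed by -4.07 (adjusted p = 0.000215); without that of section 7, L1td1 changed by 2.36 (adjusted p = 0.000538), Pou5f1 by -7.24 (adjusted p = 4.6e-06), Sox2 by -4.48 and Utf1 by -5.14, each resting on 1 VE library whose spread was assumed to be that of the others.

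Visceral endoderm markers were read beside these values. They summed to 306 and 1111 FPKM in the VE pieces from section 6 and section 7, against 57.2 and 47.7 FPKM in the other libraries of these sections. Of 14 markers, 6 reached an FPKM of 1 in the VE library of section 6 and 7 in that of section 7, and Afp, Foxa2, Gata4, Hnf4a and Trf were listed at 0 in both. The VE library of section 7 also listed Gata6 at 0 and held Amn, a visceral endoderm receptor subunit, at 7.71 and Ttr, the thyroxine carrier transthyretin, at 6.44. The VE library of section 6 also listed Amn, Ttr and Sox17 at 0, and its marker sum came mainly from Apoe, at 7.99, with the endoderm factor Gata6 at 5.12. Ectoplacental cone markers summed to 576 FPKM in the VE library of section 6, more than its visceral endoderm markers, led by the placental lactogen gene Prl3d1 at 9.17, and to 55.1 FPKM in that of section 7, against 394 and 36.5 FPKM in the other libraries of these sections. Extraembryonic ectoderm markers summed to 62.1 and 6.06 FPKM in the VE libraries, against 7.94 and 8.40 FPKM in the others, with Ets2 at 5.19 and Eomes at 4.19 in that of section 6. The other library of section 6 also held Prl3d1, at 8.55. Of the epiblast markers, the VE library of section 7 held Pou3f1 at 5.26, Dnmt3b at 4.11 and Nodal at 3.79, with Otx2, Fgf5, Tdgf1 and Fgf4 listed at 0. The part of RNA from other tissues in the VE values was not tested.

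Across the 17 sections of E5.75 the 6 factors did not all share a profile. As a description, on sections that seem to share an embryo and that differ in gene detection, Pou5f1 and Foxd3 were most alike (Pearson r = 0.849), then Pou5f1 and Nanog (0.741). Pou5f1 and Sox2 had an r of 0.414, and 0.648 without sections 1 and 2. Without those sections, where few genes were detected, Pou5f1 had an r of 0.924 to Foxd3, 0.776 to L1td1 and 0.709 to Nanog. L1td1 then had an r of 0.761 to Nanog and 0.718 to Foxd3, against 0.538 and 0.419 over all sections. Nanog and Foxd3 then had an r of 0.637. The order of pairs thus depended on these sections. Utf1 was the least like the rest, with r of 0.162 to Pou5f1, 0.241 to Nanog, -0.036 to Sox2, -0.368 to L1td1 and 0.41 to Foxd3. Without sections 1 and 2 these were 0.188, 0.329, 0.074, 0.255 and 0.365 in the same order, so the negative r to L1td1 rested on those sections.

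The 3 genes most like each factor were sought among 3972 named genes with a mean FPKM of at least 5, by Pearson r over the same 17 sections. Pou5f1 was followed most closely by Igfbp2, an insulin-like growth factor binding protein (r = 0.942), Ptma, the chromatin protein prothymosin alpha (0.937), and Fgf4, the growth factor ligand of the epiblast (0.924). Igfbp2 had a median of 0 in sections 10 to 19, against 6.31 in sections 1 to 8. Foxd3 was most like Pmaip1, the apoptosis gene Noxa (0.958), Igfbp2 (0.909) and Tceal8 (0.905). Sox2 was most like the POU-domain factor Pou3f1 (0.838), the mismatch repair gene Msh6 (0.837) and the homeodomain repressor Tgif1 (0.821). Utf1 went with Ino80e (0.935), a chromatin remodeller subunit, Atp5j2 (0.916), a subunit of ATP synthase, and Magoh (0.91), of the exon junction complex. L1td1 went with Mtap7d3 (0.902), Zcwpw1 (0.856) and Pkm (0.849), pyruvate kinase.

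**Figure D4:**
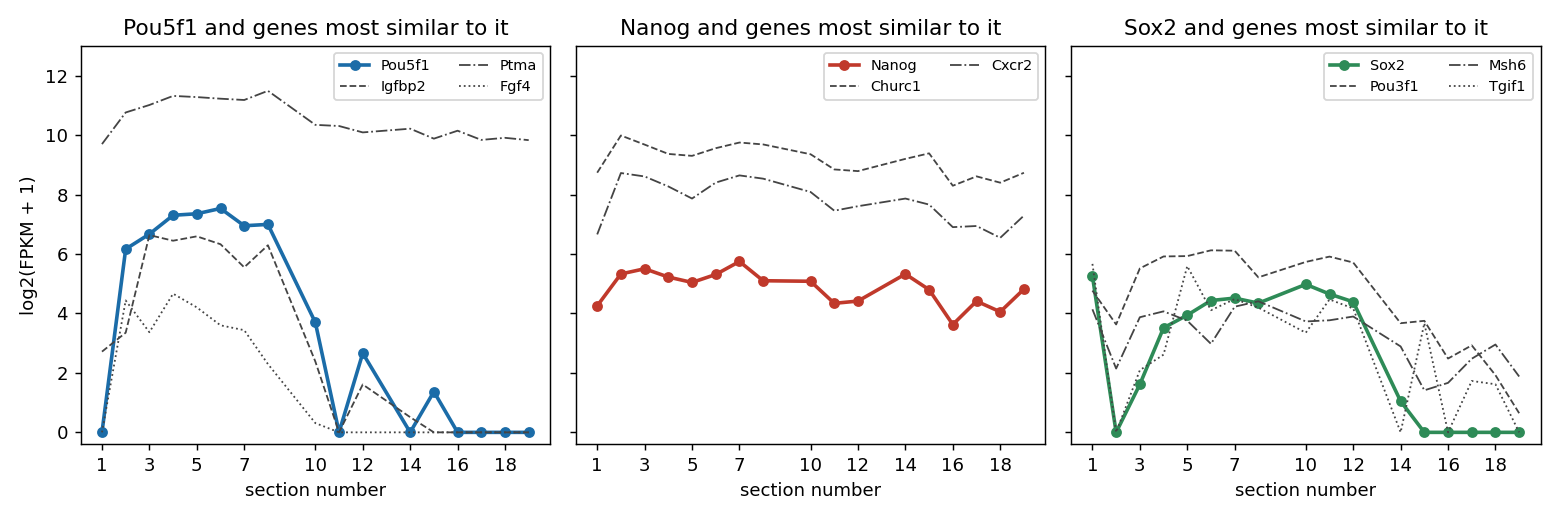
Level on the log2(FPKM + 1) scale (vertical axis) against E5.75 section number (horizontal axis) of Pou5f1, Nanog and Sox2 (coloured, with points) and of genes most like each (grey lines; 3 for Pou5f1 and Sox2, 2 for Nanog). Churc1 and Cxcr2 repeat the small rises and falls of Nanog at levels above its own.

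Among the 3 genes most like Nanog were Churc1, a zinc-finger gene (r = 0.903), and Cxcr2, a chemokine receptor of neutrophils (0.89). Both share exact sequence with the Nanog transcript, a check added after the values were seen. The longest annotated Nanog transcript has 2211 bases and its stop codon ends at base 1133. Of its 2182 stretches of 30 bases, 249, or 11.4%, also occur in transcripts of 1116 other genes, and those shared with 10 or more genes lie between bases 1228 and 1365, in the 3' untranslated region. Churc1 shares 30 stretches there and Cxcr2 30, while among all genes compared and found in the annotation 320 of 3681, or 8.69%, share any. Most sharing genes did not run with Nanog: the median r was -0.021 over the 320 sharing genes, against -0.083 over the others. Of the genes most like the other factors, all that were found in the annotation shared no stretch of 30 bases with their factor. How reads that fit several places were counted is not given in the sources used here, and its part in the even Nanog values was not tested.

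Pou5f1 shared 314 of 1333 stretches with 5 other genes, most with the gene model Gm19553, and L1td1 shared 216 with the gene model Gm48515. Nanog shared 106 with the pseudogene Nanog-ps1 on chromosome X. None of these copies has a row in the tables. Foxd3 shared 132 stretches with 6 genes and Sox2 21 with 4, whereas Utf1 shared none. Values of Pou5f1, Nanog and L1td1 are therefore uncertain to the extent that reads of the copies were counted with them.

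Genes known to be bound by OCT4 and SOX2 in embryonic stem cells did not move as a body at E5.75. Of 16 listed, 13 were tested, 4 fell, 1 rose and 8 did not pass, where 12.5% of all genes passed and 2.10% fell, and their median change was -0.94, beside 0.45 over all genes tested. Tdgf1, the Nodal co-receptor Cripto, averaged 0.11 ± 0.20 in sections 10 to 19 and 4.10 ± 1.88 in sections 1 to 8 (SD, change -3.99 ± 0.59, SE, limma adjusted p = 6.66e-05). Fgf4 fell by 3.22 ± 0.50 and Trim71, a regulator of messenger RNA stability, by 1.55 ± 0.37. Gdf3, a ligand of the TGF-beta family, fell by 1.08 ± 0.36 (adjusted p = 0.049) and is named after its value was seen. Zfp42, or Rex1, a zinc-finger gene of naive pluripotent cells and trophoblast, rose by 3.48 ± 0.52. At E5.5 Zfp42 rose by 3.01 ± 0.60 and Tdgf1 and Fgf4 fell by 2.01 ± 0.58 and 1.38 ± 0.42, with 9 of 12 not passing, beside a background of 25.7% passing. At E5.25 Jarid2, a Polycomb partner named after its value was seen, rose by 2.58 ± 0.66, with 11 of 12 not passing, beside a background of 20.6%. Neither total stands above its background, but these backgrounds were nearly all rises. Of all genes tested, 83 of 8251 fell at E5.5 and 22 of 7148 at E5.25, beside 2 of 12 and 0 of 12 listed genes.

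Of 18 protein partners of OCT4 and NANOG, 17 were tested at E5.75, 1 rose, none fell and 16 did not pass (median change -0.34). The gene that rose was Ogt, the enzyme that attaches N-acetylglucosamine to nuclear proteins, by 2.80 ± 0.58 (limma adjusted p = 0.00244). The DNA repair enzyme Parp1 changed by -0.94 ± 0.38 (adjusted p = 0.102) and Rif1, a replication timing factor, by -0.84 ± 0.37 (adjusted p = 0.132). Esrrb, a nuclear receptor of naive pluripotency and of extraembryonic ectoderm, rose by 1.98 ± 0.47 at E5.5, with the histone deacetylase Hdac2, and by 2.82 ± 0.44 at E5.25, with its complex partner Mta2, both named after their values were seen; at E5.75 its change of 1.28 ± 0.55 did not pass (adjusted p = 0.127). The 1 call among 17 at E5.75 stands beside a background of 12.5%, and the 2 calls among 16 at E5.5 and among 17 at E5.25 beside 25.7% and 20.6%.

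Among relatives of Sox2 and Pou5f1, 12 of 19 were tested at E5.75, 3 fell, none rose and 9 did not pass (median change -0.43), beside 2.10% of all genes that fell and 12.5% that passed. Sox4 averaged 0.44 ± 0.46 in sections 10 to 19 and 5.03 ± 0.62 in sections 1 to 8 (SD, change -4.59 ± 0.38, SE, limma adjusted p = 1.46e-08), and Sox11, of the same SOXC group, fell by 3.48 ± 0.45. The octamer-binding factor Pou2f2 fell by 2.13 ± 0.38. Sox21 changed by 1.92 ± 0.66 (adjusted p = 0.0557) and rose by 1.51 ± 0.34 at E5.5 and by 2.19 ± 0.40 at E5.25. Sox11 fell at these stages too, by 1.53 ± 0.49 and 1.95 ± 0.56. In all, 3 of 8 passed at E5.5 and 2 of 6 at E5.25, beside backgrounds of 25.7% and 20.6%. Of these, 2 fell at E5.5 and 1 at E5.25, where 83 of 8251 and 22 of 7148 of all genes tested fell. Of 10 RNA-binding partners and relatives of L1TD1, 7 were tested at E5.75, Trim71 fell, Lin28b, a repressor of let-7 microRNA processing, fell by 1.76 ± 0.48, and 5 did not pass (median change -0.14), beside the same background; at E5.5 and E5.25 none of 7 and none of 5 passed, beside 25.7% and 20.6%.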

How the data were processed

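Per the submitters' processing notes, TopHat2 2.0.4 and Cufflinks 2.0.2 were used with the build mm10; the annotation, the normalization and the handling of multiply mapped reads are not given in the sources used here. The deposited tables, 1 per stage, hold log2 values, read as log2(FPKM + 1) from the table names and because they start at 0. Where the labels list parts A and B of an E5.5 section, the authors' table has 1 column, and which part or parts it holds is not stated, except for section 10, whose 2 columns (the second carries conflicting labels) were averaged. Groups were set by section number, at the middle of the labelled numbers. Each stage was fitted alone with limma 3.58.1 in R 4.3.3 (eBayes, mean-variance trend, 2-sided), over genes whose FPKM reached 1 in 2 or more of the libraries in the fit, with Benjamini-Hochberg adjustment at 0.05; VE was fitted without a block. The procedure was tested on simulated data. Alternatives changed the pseudocount (0.1 or 5), the filter (none, or an FPKM of 5), the scaling, the trend, and the covariate or shape of the fit, and left out sections. Named genes are the 6 factors, the 3 most like each (1 of them, for Nanog, is not reported here), and from every list the 4 with the lowest p at E5.75, besides a few listed genes named after their values were seen. The factors and lists were chosen with earlier results of these data known. Gene positions are from GENCODE (GRCm38). No column of values was left unused.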

Additional observations from a re-analysis of the deposited data

Results flagged for a closer look

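The values were looked at in 28 sets (a factor in the low- or high-numbered sections of a stage, with 4 to 10 sections). Of these, 5 held a section set apart from the rest by Dixon's gap ratio, and 2 had no range. Chance flags about 1 in 20 sets of normally distributed values, a rate that does not hold for values with a floor at 0. A set with only 1 value above 0 is always flagged, so the count is not set against chance. Pou5f1 was listed at 0 in section 1 of E5.75, with the other sections up to 8 between 6.17 and 7.53. Nanog stood at 4.26 in the same section, with the others between 5.04 and 5.748. Sox2 stood at 4.68 in section 2 of E5.25, with the others from 0 to 0.26. Foxd3 stood at 2.02 in section 3 of E5.25 and was listed at 0 in the others. Utf1 stood at 4.70 in section 7 of E5.5, with the others between 4.34 and 4.38.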

How the results depend on the processing

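At E5.75, Pou5f1 and Foxd3 kept their direction and passed under all 27 alternatives; Nanog kept its direction at E5.75 and E5.5 and passed under none. Foxd3 was tested only through its values in sections 1 to 8, so a fall was the only direction its main fit allowed. Counts of genes that passed moved by over 1.5 times as follows. At E5.75 (1397) the count was 658 with detected genes as a covariate and 2339 as a line. At E5.5 (2118) it was 1410 with no filter, 933 rescaled to a common sum, 661 quantile normalized, 382 with detected genes as a covariate and 1371 without sections 1 and 2. At E5.25 (1476) it was 920 with no filter, 834 with a filter at 5, 132 quantile normalized, 0 with detected genes as a covariate (limma; 649 at an unadjusted p under 0.05), 29 as a line and 275 without sections 1 and 4. For the line in sections 1 to 8 (0) it was 292 with a filter at 5, 17 without trend and 1 without sections 1 and 2; in sections 10 to 19 (166) it was 96 with no filter and 106 without trend. For VE (3671) it was 1688 with a filter at 5, 0 quantile normalized (limma; 3090 at an unadjusted p under 0.05) and 297 against all of sections 1 to 8; with a replicate block on section number, whose pairing 2 pairs do not settle (r = 0.000773 over 6413 genes), it was 3800 and no factor changed its call. Leaving out each section gave 1055 to 1421 genes at E5.75, 1239 to 2440 at E5.5, 934 to 2206 at E5.25, 0 to 453 and 37 to 229 for the lines in sections 1 to 8 and 10 to 19, and 2 to 5624 for VE. Quantile normalization put 550 genes higher and 414 lower in sections 10 to 19, against 1163 and 234, and the median change of all genes at 0.09, against 0.45; Pou5f1, Foxd3 and L1td1 still passed. It put the E5.5 calls at 529 higher and 132 lower, against 2035 and 83.

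Signs that turned belong to factors that did not pass. Utf1 at E5.75 was at -0.041 quantile normalized, -1.22 with detected genes as a covariate and -0.64 without sections 1 and 2, and at E5.5 it was at -2.09 with that covariate; L1td1 at E5.5 was at -1.60 with it and -0.0065 without sections 1 and 2. At E5.25 Sox2 and L1td1 were at -0.086 and -0.75 quantile normalized, and Nanog was at 2.36 with the covariate, 0.47 as a line and 0.24 without sections 1 and 4. In sections 1 to 8 Utf1 and Foxd3 were at -0.96 and -0.25 with the covariate and Nanog at -0.025 without sections 1 and 2. With each section left out, Utf1 at E5.75 ran from -0.088 to 0.75, Nanog and L1td1 at E5.25 from -0.80 to 0.28 and from -0.27 to 0.50, Nanog in sections 1 to 8 from -0.023 to 0.85, and in VE Nanog from -1.30 to 0.20, Sox2 from -4.48 to 0.89 and L1td1 from -4.07 to 2.36. The cause of these shifts was not tested.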
